A study of Rattus norvegicus with 61 samples.

Results

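Striatal interneuron transcripts are 6 rat genes that mark local-circuit neurons of the striatum. They were taken by NCBI Gene ID as a fixed list, not by their values, and 6 of 6 were found in both count tables, among 14471 genes present in either table. A group of 3 genes belongs to cholinergic interneurons. Chat (290567) makes acetylcholine, Slc5a7 (85426) takes choline back up into the terminal, and Slc18a3 (60422) loads acetylcholine into vesicles. The other 3 genes belong to interneurons that release peptides and nitric oxide. Sst (24797) encodes somatostatin, Npy (24604) neuropeptide Y, and Nos1 (24598) the neuronal nitric oxide synthase.

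The samples were tissue punches of striatum and cerebellum from male adolescent Sprague-Dawley rats, and RNA was read by sequencing. Every rat carried a subcutaneous polymer implant from postnatal day 28 for 28 days. The polymer was loaded with 4-OH-PCB52 at 0% (sham), 1% (low), 5% (medium) or 10% (high). This compound is made in the body from a polychlorinated biphenyl by hydroxylation, and the study asked how this exposure alters gene expression in both regions. Sham, low, medium and high groups held 8, 6, 8 and 8 striatal libraries and 7, 8, 8 and 8 cerebellar libraries. Sham rats carried the polymer without the compound, and no rats without an implant are among the samples. A library is named here by its region, group and animal number, and 29 animals gave both regions.

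In the striatum most neurons are GABAergic projection neurons, and interneurons are a small minority. Cholinergic interneurons are large, tonically active cells that supply most of the acetylcholine of the region. A separate class of GABAergic interneurons in the rodent striatum makes somatostatin, neuropeptide Y and nitric oxide in the same cells. The cerebellum has few cholinergic cell bodies, while its granule cells and molecular layer interneurons are known for neuronal nitric oxide synthase. In bulk tissue, fewer cells of a type and less RNA per cell cannot be told apart.

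The cholinergic genes Chat and Slc18a3 form a nested locus. In the RefSeq annotation the whole Slc18a3 span lies inside the Chat span on the same strand, with gene starts 602 bases apart, so the counting could have split or dropped reads between them and their counts are uncertain to that extent. Promoter windows of the GRCr8 build were available from RefSeq for 6 of 6 members. The Chat and Slc18a3 windows are shown because these neighbours gave the closest pair of levels described further on, and the Sst and Nos1 windows because both members hold the same cyclic AMP response motif near their start. Each sequence is the 250 bases before the annotated start, 5′ to 3′ on the gene's own strand: Chat chr16:7723417-7723666 and Slc18a3 chr16:7722815-7723064 on the minus strand, Sst chr11:90461296-90461545 on the plus strand and Nos1 chr12:44371838-44372087 on the minus strand.
Chat: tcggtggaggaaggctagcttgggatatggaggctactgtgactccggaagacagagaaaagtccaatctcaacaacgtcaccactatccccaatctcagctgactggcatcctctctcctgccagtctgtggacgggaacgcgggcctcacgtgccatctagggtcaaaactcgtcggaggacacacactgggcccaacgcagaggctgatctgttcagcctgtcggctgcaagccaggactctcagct
Slc18a3: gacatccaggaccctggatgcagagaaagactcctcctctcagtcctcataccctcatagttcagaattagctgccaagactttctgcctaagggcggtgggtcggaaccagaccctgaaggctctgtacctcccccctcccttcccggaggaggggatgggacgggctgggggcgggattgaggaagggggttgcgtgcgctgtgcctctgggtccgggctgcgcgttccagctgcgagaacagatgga
Sst: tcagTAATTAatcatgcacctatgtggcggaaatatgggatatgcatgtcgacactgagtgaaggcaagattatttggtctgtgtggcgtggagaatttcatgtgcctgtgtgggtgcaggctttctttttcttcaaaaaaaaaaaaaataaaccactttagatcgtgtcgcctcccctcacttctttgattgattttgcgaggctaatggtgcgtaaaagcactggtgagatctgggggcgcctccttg
Nos1: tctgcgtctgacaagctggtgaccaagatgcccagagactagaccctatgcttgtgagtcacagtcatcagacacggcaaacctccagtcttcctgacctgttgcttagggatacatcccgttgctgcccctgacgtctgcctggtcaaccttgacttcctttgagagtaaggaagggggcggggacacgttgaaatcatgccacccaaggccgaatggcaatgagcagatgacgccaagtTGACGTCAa
Capitals mark matches to the motifs searched on both strands, TGACGTCA (the cyclic AMP response element), TAATTA (a core site of homeodomain proteins) and TATAAA (the TATA box), none of which can hold another. The search covered 250 bases before and 50 bases after each start. Nos1 held TGACGTCA beginning 9 bases before its start, and Sst held it in the 50 bases after its annotated start, beyond the stretch shown. Of 33469 RefSeq windows of that length, 1.83% held TGACGTCA, 5.36% TAATTA and 14.2% TATAAA. Sst also held TAATTA and Slc5a7 held TATAAA, while Chat, Slc18a3 and Npy held none of the 3 motifs. These are matches of letters in a window.

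Library totals were 5850199 to 10944066 reads (median 7139973) in the striatum and 5420458 to 10994625 (median 7223058) in the cerebellum. Several libraries stood apart from their region. The projection neuron list, with 13 of 13 genes tested, averaged 8.52 to 9.49 on the log2 scale of CPM (reads of a gene scaled to 1000000 reads of its library) in the 22 striatal libraries that did not stand apart. It averaged 4.48, 5.04 and 5.24 in the striatal libraries sham 17, low 20 and high 13, and 7.62 in high 44. Striatal libraries sham 49, medium 8, medium 41 and high 28 had ribosomal protein means of 9.01 to 9.73, against a median of 7.96 over all 30. In the cerebellum 10 of 31 libraries stood apart. The library labelled cerebellum low 22 went against its label: its granule cell list averaged 3.10, against 6.08 to 8.61 in the other 30 libraries, with 1.79 CPM of Gabra6, a receptor subunit that marks granule cells, against 199 to 986 CPM elsewhere. Several results that rest on these libraries are given with and without them.

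The 6 transcripts were all present in every striatal library, and their levels spread widely within each exposure group. Levels are CPM scaled by trimmed mean of M values. Chat was detected at 12.8, 15.0 and 35.8 CPM (lowest, median and highest) in sham striatum, 7.64, 17 and 34.6 CPM in low, 11, 14.5 and 25.7 CPM in medium and 5.96, 17 and 41 CPM in high. Slc5a7 was detected at 12.3, 25.1 and 48.9 CPM in sham, 19.7, 24.4 and 46.6 CPM in low, 14.8, 21.6 and 34.6 CPM in medium and 11.4, 27.7 and 43.1 CPM in high. Slc18a3 was detected at 6.90, 11.4 and 20.4 CPM in sham, 6.35, 10.5 and 25.2 CPM in low, 7.09, 12.0 and 17.2 CPM in medium and 3.52, 12.3 and 37.2 CPM in high. All 4 groups overlapped for each cholinergic gene. Sham 18, low 37 and high 59 were the highest libraries of their groups for all 3 cholinergic genes, and high 44 the lowest of its group for all 3.

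Somatostatin and neuropeptide Y transcripts were detected with the same kind of overlap. Sst was detected at 99.2, 114 and 210 CPM in sham striatum, 14.1, 97.9 and 124 CPM in low, 80.0, 109 and 281 CPM in medium and 20.5, 120 and 217 CPM in high. Npy was detected at 40.8, 156 and 261 CPM in sham, 29.5, 125 and 199 CPM in low, 139, 174 and 315 CPM in medium and 48.7, 141 and 344 CPM in high. The lowest Sst libraries were low 20 and high 13, and these with sham 17 were also the lowest for Npy. Nos1 was detected at 5.36, 25.5 and 34.2 CPM in sham, 9.58, 27 and 31.4 CPM in low, 3.06, 30.2 and 41.9 CPM in medium and 1.77, 32.4 and 37 CPM in high. Nos1 levels were bunched above 15 CPM in most libraries, with a small number of libraries far below: sham 48 and 49, low 20, medium 8 and 41, and high 13 and 28.

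**Figure D1:**
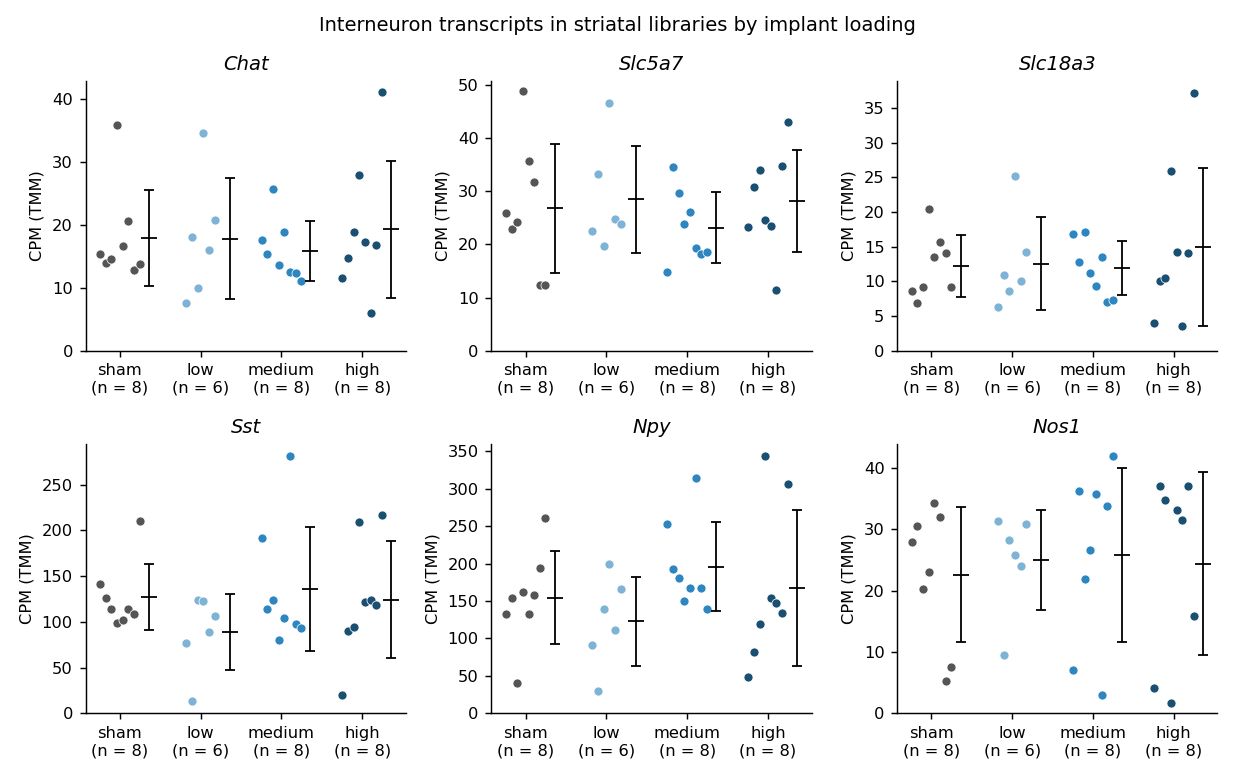
Level of each transcript (CPM, linear axis from 0) in every striatal library by implant loading, 1 point a library in order of animal number, with the group mean and SD as a bar beside the points. The groups overlap for each gene, from 5.96 to 41 CPM for Chat and from 1.77 to 41.9 CPM for Nos1.

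No interneuron transcript was called different between exposed and sham striatum at any loading. With edgeR's quasi-likelihood test and Benjamini-Hochberg adjustment, 0 of 6 members were called in low, medium or high against sham, and 0 of 6 had an unadjusted p under 0.05. Among all 12267 genes tested, 0% were called in each of these comparisons, while 471 genes for low, 453 for medium and 141 for high had an unadjusted p under 0.05. DESeq2 and limma-voom called 0 genes as well. The 3 comparisons share the sham libraries. The low punches averaged 17.8 ± 9.57 CPM of Chat (SD, n = 6), the medium punches 15.8 ± 4.78 CPM (n = 8) and the high punches 19.2 ± 10.8 CPM (n = 8), against 17.9 ± 7.64 CPM in sham (n = 8). The log2 fold changes of Chat were -0.01 ± 0.33 for low, -0.18 ± 0.31 for medium and 0.10 ± 0.30 for high (± SE, adjusted p = 0.995, 1 and 1). Their 95% intervals ran from -0.68 to 0.67, -0.80 to 0.45 and -0.52 to 0.73, so that a 2-fold change in either direction, a log2 value of 1, lay outside each.

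The other cholinergic genes gave values of the same size. Slc5a7 averaged 28.5 ± 9.98 CPM in low, 23.1 ± 6.68 CPM in medium and 28.2 ± 9.63 CPM in high, against 26.8 ± 12.1 CPM in sham, with log2 fold changes of 0.09 ± 0.28, -0.21 ± 0.26 and 0.07 ± 0.26. Slc18a3 averaged 12.5 ± 6.71 CPM in low, 11.9 ± 3.90 CPM in medium and 14.9 ± 11.4 CPM in high, against 12.2 ± 4.51 CPM in sham. Its log2 fold changes were 0.05 ± 0.39, -0.03 ± 0.36 and 0.30 ± 0.36. The value for high rested in part on high 59 and turned to -0.05 without it.

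Of the peptide genes, Sst had the lowest value, in low striatum. Sst averaged 89.0 ± 41.2 CPM in low, 136 ± 67.9 CPM in medium and 124 ± 64.2 CPM in high, against 127 ± 36.1 CPM in sham. Its log2 fold change for low was -0.51 ± 0.38 (edgeR quasi-likelihood test, adjusted p = 0.905), with an interval from -1.30 to 0.27, and for medium and high it was 0.10 ± 0.35 and -0.03 ± 0.35. Low 20, the punch poor in projection neurons, held 14.1 CPM of Sst, while the other 5 low libraries held 76.7 to 124 CPM. Without the libraries standing apart the value for low was -0.15. Npy averaged 123 ± 59.6 CPM in low, 196 ± 59.3 CPM in medium and 167 ± 104 CPM in high, against 155 ± 61.9 CPM in sham, with log2 fold changes of -0.33 ± 0.38, 0.34 ± 0.35 and 0.11 ± 0.35. Nos1 averaged 25.0 ± 8.09, 25.8 ± 14.2 and 24.4 ± 14.9 CPM in low, medium and high, against 22.6 ± 11 CPM in sham. Its log2 fold changes were 0.14 ± 0.52, 0.18 ± 0.48 and 0.11 ± 0.48, and the interval for low, from -0.92 to 1.21, was wider than that of any cholinergic gene.

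Tests over the whole dose series called none of these genes either. The slope of log2 level with percent loading lay between 0.0009 for Slc5a7 and 0.028 for Npy per percent, with adjusted p = 1 for 6 of 6 members (edgeR quasi-likelihood test), and 0% of all genes were called. By the test of any difference among the 4 groups, 0.0245% of genes were called (3 of 12267), 0 of 6 members among them, and 0 of 6 had an unadjusted p under 0.05. The median log2 fold change of the 6 members was 0.02 for low, 0.04 for medium and 0.11 for high, beside 0.00, 0.02 and 0.02 over all genes tested.

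**Figure D2:**
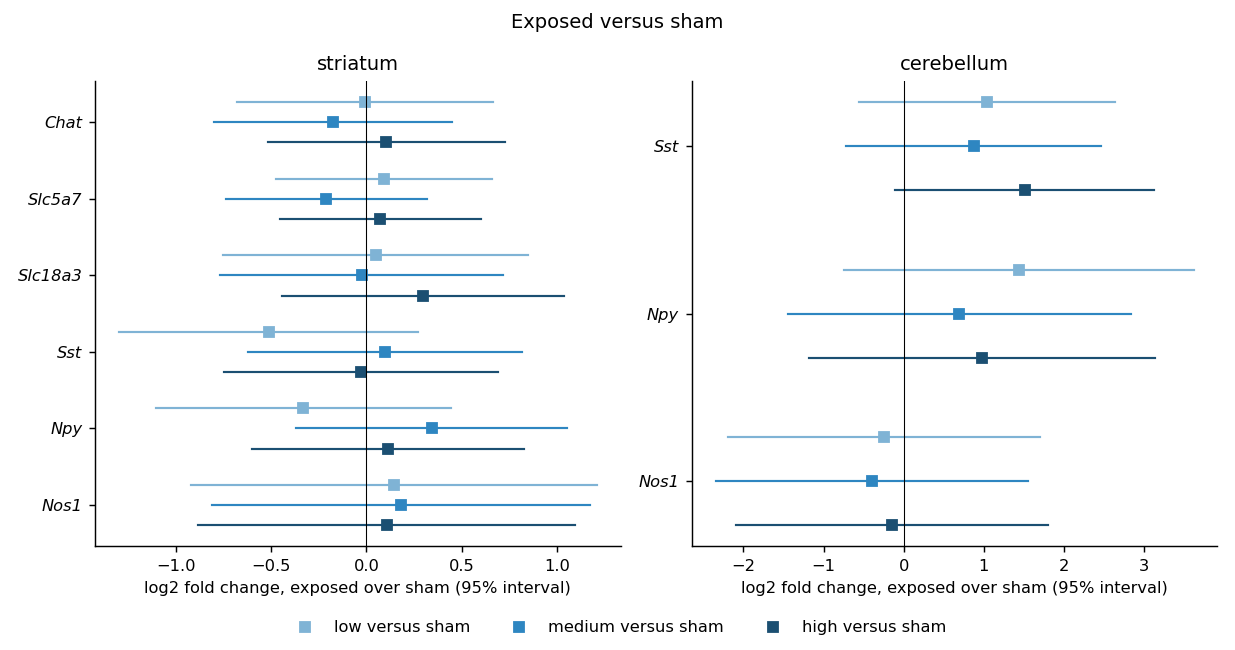
Log2 fold change of exposed over sham libraries with its 95% interval (edgeR quasi-likelihood fit) for 6 transcripts in the striatum and the 3 that passed the low-count filter in the cerebellum, low, medium and high from top to bottom for each gene. Every interval spans 0, and the cerebellar intervals are wider.

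Genes that act with these transcripts were read from the same fits. The lists held cholinergic neuron identity genes (10), enzymes and carriers of acetylcholine (9), acetylcholine receptors (18), identity genes of the peptide and nitric oxide class (13), peptide receptors (10), nitric oxide signalling genes (17) and markers of other interneurons (16), with some genes on more than one list. In the striatum 79 list genes were tested, and 0 were called in low, medium or high against sham or in the trend by edgeR's quasi-likelihood test. The list genes of smallest p were Gucy1b2, a guanylate cyclase subunit, in low striatum (log2 fold change 0.99 ± 0.31, adjusted p = 0.905), Pnoc, the precursor of nociceptin, in medium (-1.74 ± 0.55, adjusted p = 1) and again Pnoc in high (-1.04 ± 0.53, adjusted p = 1). Calb2 (calretinin), which marks a further interneuron class but also cells next to the striatum, gave -2.70 ± 0.91 in medium (adjusted p = 1). The medium group had no punch poor in projection neurons, with that list at 8.87 to 9.49, against 4.48 to 9.18 in sham, and the list of septum, pallidum and thalamus genes, which holds Calb2, had 1 of 10 tested genes higher and 9 lower. The part of punch content in these values was not tested.

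The cholinergic transcripts were at the edge of detection in the cerebellum, where they failed the low-count filter. The 8 sham striatal libraries held 1135 reads of Chat, 1720 of Slc5a7 and 761 of Slc18a3, against 2, 13 and 2 reads over the 7 sham cerebellar libraries. In CPM this was a ratio of striatum over cerebellum of 445 for Chat (95% interval 123 to 3680), 104 for Slc5a7 (60.6 to 195) and 299 for Slc18a3 (82.4 to 2470), intervals that cover counting error only. Leaving out cerebellum low 22, Chat had 0 reads in 18 of 30 cerebellar libraries, Slc18a3 in 25 and Slc5a7 in 12. The lowest of the 30 striatal libraries held 5.96, 3.52 and 11.4 CPM of Chat, Slc18a3 and Slc5a7. The highest of those 30 cerebellar libraries held 1.25, 1.00 and 0.878 CPM, with cerebellum low 22 left out after its values were seen. The share of all genes with ranges apart in this way was not counted. Between the sham regions 43% of 12616 genes were called, so a wide difference is not particular to these genes. A library with 0 reads allowed up to 3 reads, or 0.273 to 0.553 CPM at these depths.

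Of the 3 transcripts past the low-count filter in both regions, Sst and Npy were higher and Nos1 lower in sham striatum than sham cerebellum. The comparison did not pair the libraries of an animal, and with pairing the call of Nos1 was lost. The comparison used edgeR's quasi-likelihood test over both regions, in which 20.9% of 12616 genes were called higher and 22.1% lower in the striatum, 43% in all, so that a call as such is common. Chat, Slc5a7 and Slc18a3 entered this fit only through the striatum, where they are high, so their calls are not counted here and the ratios above describe them. Sst averaged 127 ± 36.1 CPM in striatum (n = 8) and 18.8 ± 11.9 CPM in cerebellum (n = 7), a log2 difference, striatum minus cerebellum, of 2.72 ± 0.66 (adjusted p = 0.000553). Sst was 99.2 CPM or higher in each sham striatal library and 41.5 CPM or lower in each sham cerebellar one. Npy averaged 155 ± 61.9 CPM in striatum and 11.7 ± 15.5 CPM in cerebellum, a log2 difference of 3.70 ± 0.88 (adjusted p = 0.000476). The sham groups overlapped for Npy through 2 libraries only, striatum sham 17 at 40.8 CPM and cerebellum sham 48 at 44.4 CPM. Both stand apart. Over 6 other settings, 1 of them without the libraries standing apart, the difference ran from 2.71 to 2.87 for Sst and from 3.68 to 4.61 for Npy.

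Nos1 ran the other way. It averaged 22.6 ± 11 CPM in sham striatum and 122 ± 79.3 CPM in sham cerebellum, a log2 difference of -2.48 ± 0.81 (edgeR quasi-likelihood test, adjusted p = 0.0107). In 6 of 7 sham cerebellar libraries Nos1 lay at 73.9 to 237 CPM, above every sham striatal library, and in cerebellum sham 48 it lay at 2.73 CPM, below every one. With the animal as a block the difference was -1.96 ± 0.85 and the call was lost (adjusted p = 0.0612). Without the libraries standing apart it was -2.52 ± 0.28 (adjusted p = 3.24e-10). Over all groups, the 10 cerebellar libraries standing apart held 0.411 to 33.5 CPM of Nos1 and the 21 others 55.5 to 237 CPM. Leaving them out thus drops the libraries low in Nos1, and this p value cannot restore the lost call.

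**Figure D3:**
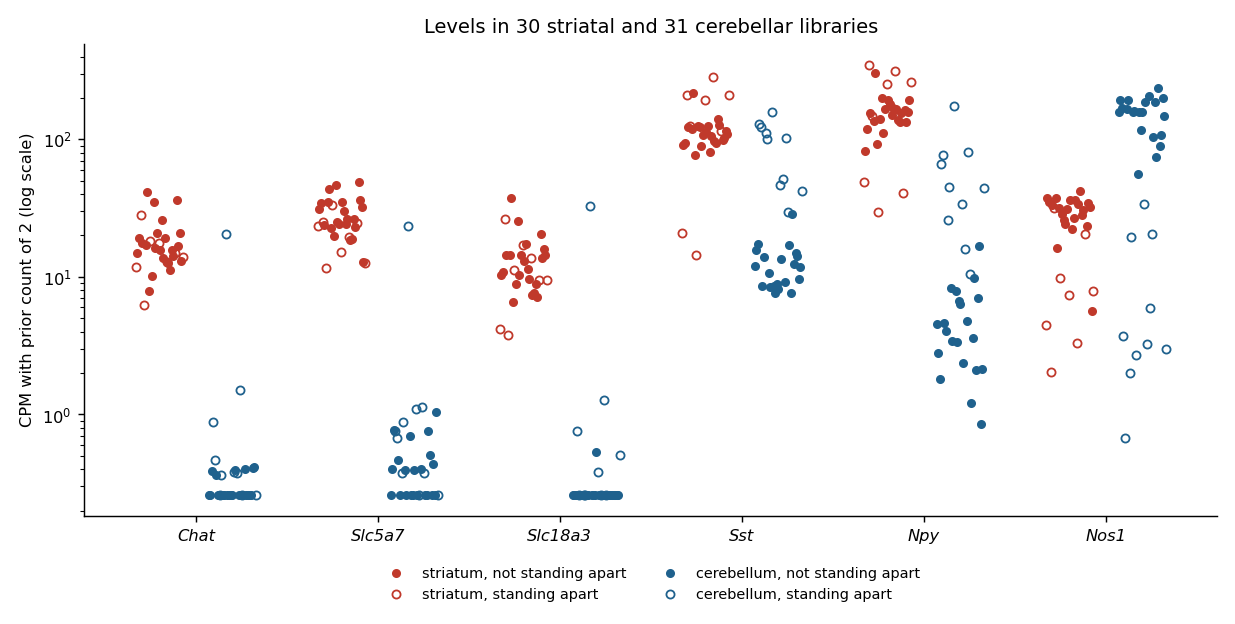
Level of each transcript (CPM with a prior count of 2, log axis) in 30 striatal and 31 cerebellar libraries of all exposure groups, striatum left of cerebellum, with open circles for libraries standing apart. The cholinergic transcripts lie low in the cerebellum except in 1 open circle, the library labelled low 22. Nos1 is the one transcript with a lower median in the striatum (28.1 CPM) than in the cerebellum (117 CPM).

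Partner genes of the cholinergic class were read from the same comparison, in which 20.9% of genes were called higher and 22.1% lower. A gene enters the joint fit by its level in either region, so a gene that is high in the striatum only had to differ. Counts of calls in lists with such genes are therefore a description and cannot be set against that background. In sham striatum against sham cerebellum 5 of 8 tested cholinergic identity genes were called higher and 0 lower, and only 3 genes of this list passed the filter in the cerebellum. Tacr1, the substance P receptor, was highest at 8.08 ± 0.96, followed by Slc17a8, the vesicular glutamate transporter of these cells, at 7.47 ± 0.93. The transcription factor Gbx2 gave 5.65 ± 1.62, but lay near the floor, at a median of 0.392 CPM (0 to 7.53) in 27 striatal libraries. It was 26.7 and 20.1 CPM in striatum low 20 and high 13, which were poor in projection neurons, and 2.4 CPM in sham 17. Of 9 genes of acetylcholine handling, which all passed the filter in both regions, 3 were called higher and 1 lower, a share near the background of 43%. Their median log2 difference was 0.47. Prima1, which anchors acetylcholinesterase to the membrane, was 2.66 ± 0.36 higher and the choline kinase Chkb gave -1 ± 0.16. Of 13 tested acetylcholine receptors, 7 of which passed the filter in the cerebellum, 8 were called higher and 0 lower, led by the muscarinic receptor Chrm4 at 7.11 ± 0.87 and the nicotinic subunit Chrna5 at 6.55 ± 1.06. Chrna4 and Chrm5 were the lowest of the called receptors, at 2.10 ± 0.81 and 2.62 ± 0.72.

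The lists of the peptide and nitric oxide class were mixed. Each held genes that did not pass the filter in the cerebellum, so their counts are a description too. Of 12 tested identity genes (7 past the filter in the cerebellum) 8 were called higher and 1 lower in sham striatum, with Elfn1 at 6.11 ± 0.88 and the transcription factor Maf at -2.27 ± 0.37. Of 7 tested peptide receptors (4 past that filter) 6 were called higher and 1 lower. The neuropeptide Y receptors Npy5r and Npy2r gave 4.97 ± 1.00 and 3.99 ± 0.73, the somatostatin receptor Sstr2 1.57 ± 0.37 and Sstr3 -3.57 ± 0.49. Of 17 nitric oxide signalling genes (14 past it) 8 were called higher and 3 lower. The phosphodiesterase Pde1b and the guanylate cyclase subunit Gucy1a1 gave 4.86 ± 0.44 and 4.02 ± 0.51, while the phosphodiesterase Pde5a and the cyclic GMP kinase Prkg1 gave -4.31 ± 0.55 and -1.85 ± 0.44. Among markers of other interneurons 6 of 15 tested genes (10 past it) were called higher and 4 lower, with Crabp1 at 6.15 ± 1.17 and Htr3a at 4.95 ± 0.74 against Pvalb (parvalbumin) at -4.61 ± 0.63 and Calb2 at -4.40 ± 0.73. Each of these calls is from edgeR's quasi-likelihood test with Benjamini-Hochberg adjustment, with adjusted p of 0.0302 (Chrna4) or less.

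In the cerebellum the exposed groups held libraries with far more Sst and Npy than the rest, but no difference from sham was called. Sst was detected at 9.33, 13.9 and 41.5 CPM (lowest, median and highest) in sham cerebellum, 7.33, 8.51 and 157 CPM in low, 7.38, 23.2 and 102 CPM in medium and 8.38, 16.3 and 130 CPM in high. Npy was detected at 0.592, 6.77 and 44.4 CPM in sham, 3.09, 7.01 and 173 CPM in low, 0.955, 7.42 and 80.4 CPM in medium and 1.55, 4.33 and 76.8 CPM in high. For Sst each library above 28.6 CPM stood apart, and these were low 6 and 22, medium 8, 24, 40 and 41, high 28, 43 and 59, and sham 48. By edgeR's quasi-likelihood test 0 of the 3 members that passed the filter were called at any loading, and 0 of 3 had an unadjusted p under 0.05. The background was 0% of 11946 genes called at each loading, with 182, 170 and 1394 genes at an unadjusted p under 0.05 for low, medium and high. DESeq2 and limma-voom called 0 genes. For high, DESeq2 gave no adjusted p for Sst, Npy or Nos1, so it could not call them there. Its log2 fold change of Sst for high was 1.56 ± 0.718.

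The log2 fold changes of Sst were 1.04 ± 0.78, 0.87 ± 0.78 and 1.51 ± 0.79 for low, medium and high (edgeR quasi-likelihood test, adjusted p = 1, 0.999 and 0.452). Without the libraries standing apart they turned to -0.82 ± 0.245, -0.38 ± 0.27 and -0.18 ± 0.247 (same test, adjusted p = 0.939, 0.815 and 0.803). The counts of unadjusted p above are from the fit with all libraries and do not cover this subset. In the subset the value of Sst for low was large beside its SE. Npy gave 1.44 ± 1.07, 0.70 ± 1.05 and 0.98 ± 1.06, and without those libraries -0.07, -1.13 and -0.85. For low, animal 22 alone moved Npy to -0.03 and Sst to 0.21 when left out. Nos1 was detected at 2.73, 108 and 237 CPM in sham cerebellum, 2.43, 137 and 160 CPM in low, 2.99, 68.4 and 207 CPM in medium and 0.411, 163 and 192 CPM in high. It was under 6 CPM in sham 48, low 22, medium 24 and 40, and high 28, 43 and 59, and over 19 CPM in each other cerebellar library. Its log2 fold changes were -0.24 ± 0.95, -0.40 ± 0.95 and -0.15 ± 0.95, none called. The slope with percent loading was not called for any of the 3 members (adjusted p = 0.446 for Sst, 0.945 for Npy and 0.959 for Nos1), with 0% of all genes called.

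Neither was a difference between regions in the exposure effect called for any member. The interaction, exposed minus sham in striatum less the same in cerebellum, called 0% of 12616 genes for low and for medium and 0.00793% (1 gene, not a member) for high, by edgeR's quasi-likelihood test. For low, 291 of all 12616 genes had an unadjusted p under 0.05. Among them were 3 of 6 members, which passed the filter of this fit only through the striatum, where they are high. They were Chat (-5.55 ± 1.47, adjusted p = 0.513), Slc5a7 (-3.48 ± 1.12, adjusted p = 1) and Slc18a3 (-6.20 ± 1.59, adjusted p = 0.513). These values rested on cerebellum low 22, which held 20.1 CPM of Chat, 23.3 CPM of Slc5a7 and 32.5 CPM of Slc18a3, a range otherwise seen in striatum. Without that library the interaction was 0.63 for Chat, 0.33 for Slc5a7 and 0.04 for Slc18a3. The same library held 157 CPM of Sst and 173 CPM of Npy but 2.43 CPM of Nos1. It held 0.767 CPM of Drd1, a dopamine receptor of projection neurons, against 164 to 518 CPM in 27 striatal libraries. Striatum sham 17, low 20 and high 13 held 8.25, 22.9 and 29.5 CPM of Drd1. Reads of Slc18a3 per read of Chat were 1.62 in cerebellum low 22, against 0.344 to 1.1 in the striatal libraries.

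Between striatal punches the cholinergic transcripts varied together, and so did Sst and Npy. Over 30 striatal libraries Pearson's r of log2 CPM was 0.871 for Chat with Slc18a3 (Spearman's rho 0.823), 0.714 for Chat with Slc5a7 (rho 0.734) and 0.536 for Slc5a7 with Slc18a3 (rho 0.527). Adjusted p values from permutation tests of 100000 resamples were 0.000165, 0.00022 and 0.00982 for r and 0.00033, 0.00066 and 0.0178 for rho. The smallest raw p these permutations can give is 1e-05, which Chat with Slc18a3 reached. Adjustment covered a family of 33 relations. Without the 2 libraries farthest from the median of the first gene, r was 0.797, 0.612 and 0.397, and the last was then not called (adjusted p = 0.105). Within the 4 runs of 15 animal numbers, which stand in for the 4 cohorts that the labels name without assigning rats, r ran from 0.671 to 0.924 for Chat with Slc18a3. It ran from -0.01 to 0.945 for Chat with Slc5a7 and from -0.11 to 0.881 for Slc5a7 with Slc18a3, with both lowest values in the run of the lowest animal numbers, so that these relations did not hold within every run. The nested pair was the closest of the 3, and the part of reads that overlap both genes was not tested.

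Sst and Npy gave r = 0.834 (rho 0.674, adjusted permutation p = 0.000165 and 0.00088 for r and rho), 0.693 without the 2 farthest libraries and 0.759 to 0.92 within runs. The reads of Npy per read of Sst were 1.47 ± 0.36 in low (SD, n = 6), 1.53 ± 0.24 in medium and 1.40 ± 0.45 in high, against 1.23 ± 0.44 in sham striatum (n = 8 each). Nos1, which the same cells are known to make, did not go up with either peptide. Its r was -0.06 with Sst and -0.19 with Npy (adjusted permutation p = 0.825 and 0.484). Without low 20 and high 13, the 2 libraries farthest for Sst, r with Sst was -0.741 (adjusted permutation p = 0.00121), and over the 22 libraries not standing apart it was -0.27. Across the 2 classes, Slc18a3 with Npy gave 0.506 (rho 0.566, adjusted permutation p = 0.0161 and 0.0109), and 0.667 without the libraries standing apart. Further relations across the classes that were not called over all 30 libraries were called without those libraries. Chat with Npy gave 0.603, against 0.297 over all 30 libraries (adjusted permutation p = 0.0165 and 0.217). Chat with Sst gave 0.545, against 0.182 (adjusted permutation p = 0.032 and 0.496), and Slc18a3 with Sst 0.583, against 0.42 (adjusted permutation p = 0.0204 and 0.0577), and the last was also called on deviations from the group means.

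**Figure D4:**
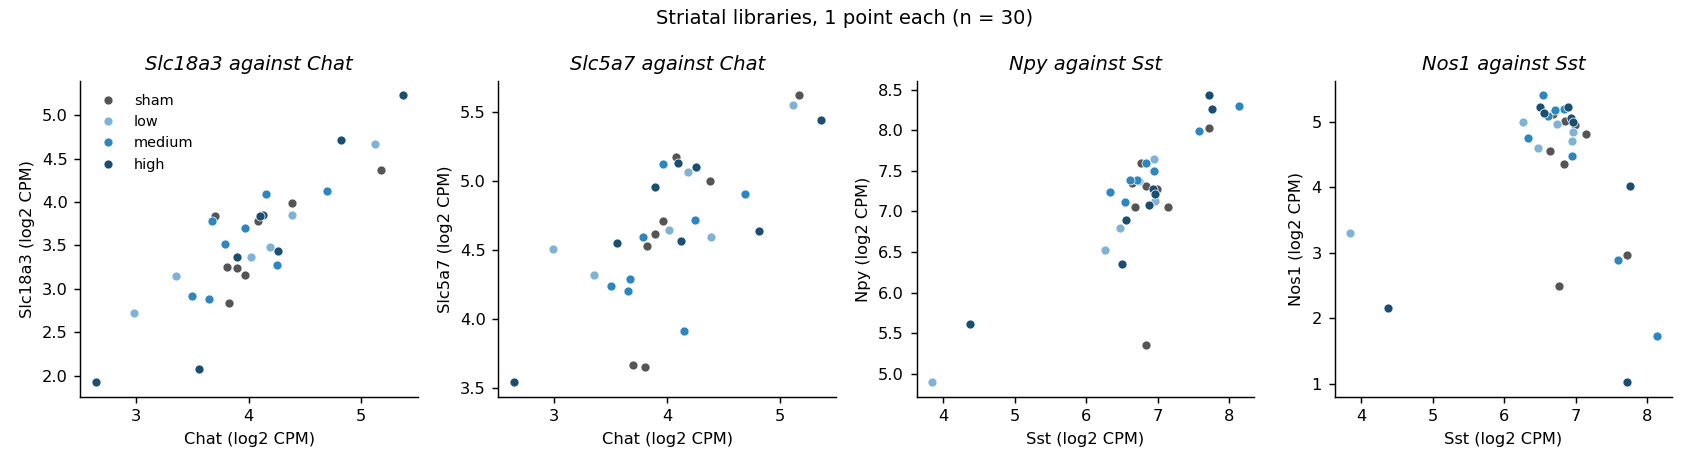
Log2 CPM of member pairs in 30 striatal libraries, 1 point each, shaded by implant loading. Slc18a3 and Slc5a7 run up with Chat and Npy runs up with Sst (r = 0.871, 0.714 and 0.834), while Nos1 against Sst falls into separate bunches of points (r = -0.06).

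The genes most like each member were ranked by Spearman's rho over the 30 striatal libraries among 12204 other genes with a mean of at least 1 CPM, as a description. Chat was most like Slc18a3 (0.823), and its closest genes also held Ecel1 (0.749), an endopeptidase of neurons, Slc5a7 (0.734) and Slc10a4 (0.685), a carrier-like protein of cholinergic vesicles. Slc18a3 was most like Lhx8 (0.865), the transcription factor that sets cholinergic identity, and its closest genes also held Ecel1 (0.845), Chat (0.823) and Slc10a4 (0.816). Slc5a7 was most like Chat (0.734), then Acly (0.661), which makes cytosolic acetyl-CoA, Tacr1 (0.604), Fcsk (0.604) and Slc17a8 (0.603). The cholinergic members did not all rank each other high, since Slc18a3 ranked 21st for Slc5a7 and Slc5a7 399th for Slc18a3 (rho 0.527). Without the libraries standing apart these ranks were 8 and 57 (rho 0.663).

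For the peptide genes and Nos1 no other member was among the 5 closest genes. Sst was most like Serp2 (0.881), Lsm7 (0.865), R3hdm4 (0.861), Fbll1 (0.850) and Npdc1 (0.844), and Npy ranked 324th for it. Npy was most like Atp5f1e (0.905), a subunit of ATP synthase, Ensa (0.904), Tmem88 (0.891), Dda1 (0.890) and Cox4i1 (0.888), a subunit of cytochrome oxidase, and Sst ranked 732nd. Nos1 was most like Cacna1e (0.953), a calcium channel subunit, Abl2 (0.942), a kinase, Ppp1r12a (0.933), Spred1 (0.927) and Ncoa1 (0.926), and Sst ranked 8467th. Without the libraries standing apart Npdc1 ranked 43rd for Sst, Atp5f1e 14th for Npy and Ppp1r12a 29th for Nos1. Lsm7 then ranked 1st for Sst, Ensa 1st for Npy and Cacna1e 2nd for Nos1. All libraries of the region share the scaling, so library-wide shifts enter each of these values.

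A library-wide measure did move with the peptide genes and Nos1. How many of all genes move with it as strongly was not counted in either region, so the relation is not shown to be particular to these genes. Over 30 striatal libraries the mean of the ribosomal protein list gave r = 0.749 with Npy (rho 0.785), 0.63 with Sst (rho 0.644) and -0.708 with Nos1 (rho -0.488). Adjusted permutation p values were 0.00039, 0.00453 and 0.000715 for r and 0.000195, 0.00109 and 0.0305 for rho, in the family widened to 39 relations after the data were seen. Without the 2 farthest libraries r was 0.706, 0.567 and -0.47. Over the 22 libraries that did not stand apart r was 0.666, 0.577 and -0.769. Within runs r was 0.70 to 0.954 for Npy, 0.578 to 0.962 for Sst and -0.963 to -0.352 for Nos1, the same sign in each run. Slc18a3 gave 0.515 (rho 0.42, adjusted permutation p = 0.0126 and 0.0841), while Chat at 0.284 and Slc5a7 at -0.283 were not called (adjusted permutation p = 0.223 for both).

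The levels show the size of these shifts. Nos1 lay at 1.77 to 7.59 CPM in the 4 striatal libraries with raised ribosomal means and at 5.36 to 41.9 CPM (median 31.2) in the 22 that did not stand apart. Npy lay at 253 to 344 CPM in those 4 libraries and at 81.7 to 306 CPM (median 154) in the 22, and Sst at 192 to 281 CPM and at 76.7 to 217 CPM (median 108). In the cerebellum Nos1 went down with the ribosomal mean within both sets of libraries, with r = -0.815 in the 10 standing apart and -0.815 in the 21 others (rho -0.806 and -0.544, adjusted permutation p = 0.0126 and 0.00048 for r and 0.0359 for both rho). Without the 2 farthest libraries r was -0.761 and -0.68. Sst and Npy gave 0.542 and 0.509 in the 21 others (rho 0.456 and 0.492, adjusted permutation p = 0.0264 for both r and 0.0585 and 0.0511 for rho), and 0.34 and 0.11 in the 10. Without the 2 farthest libraries of the 21, r was 0.474 and 0.431. These 6 relations were adjusted together. The ribosomal mean ran from 7.27 to 12.1 in high cerebellum, against 7.31 to 10.1 in sham, and the fits with it as a covariate called no member in either region.

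**Figure D5:**
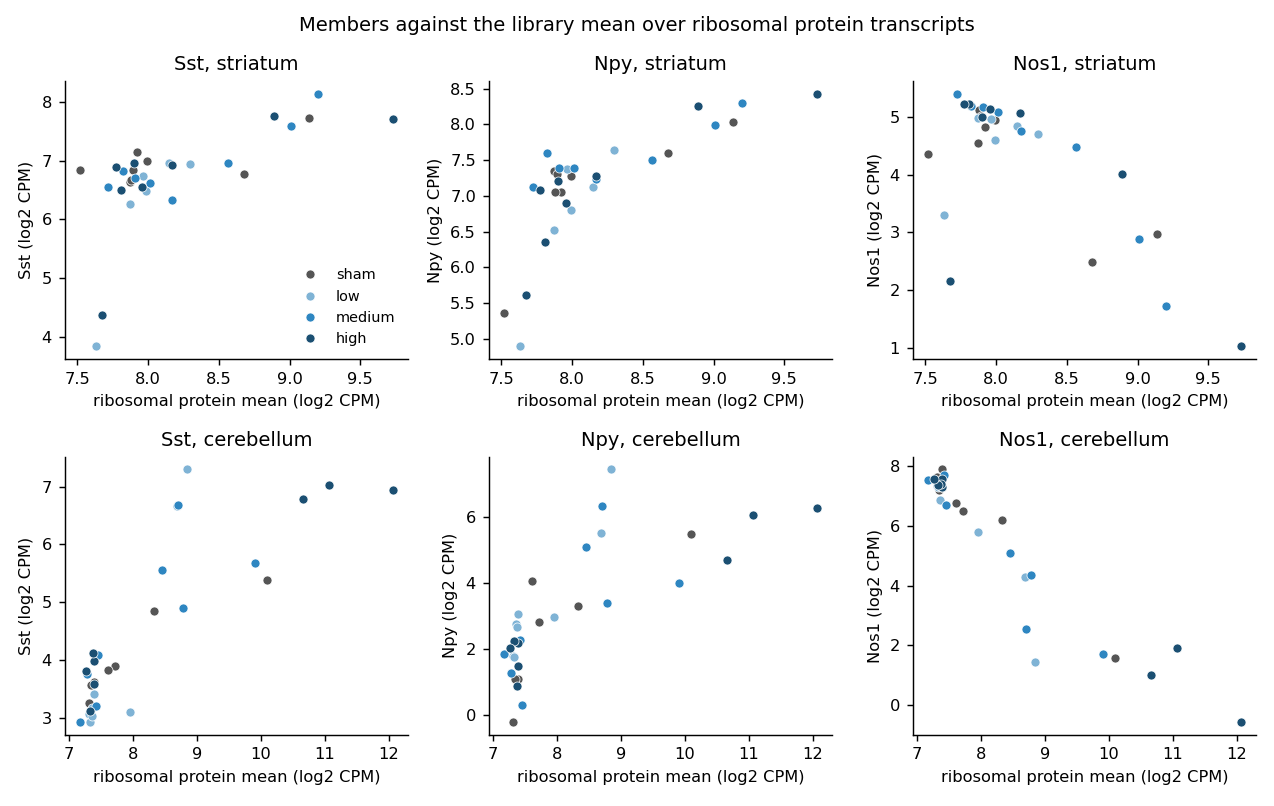
Log2 CPM of Sst, Npy and Nos1 against the library mean over ribosomal protein transcripts (log2 CPM), in 30 striatal (upper row) and 31 cerebellar libraries (lower row), shaded by implant loading. Nos1 lies low where the ribosomal mean is high in both regions (r = -0.708 over the striatal libraries), and Npy and Sst lie high there.

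Punches poor in projection neurons differed from each other in interneuron transcripts. In striatum sham 17, low 20 and high 13 the dopamine receptor Drd1 lay at 8.25, 22.9 and 29.5 CPM, against 164 to 518 CPM in the other 27 libraries. Chat stayed inside the range of the other libraries, at 14.6, 18 and 11.5 CPM (others 5.96 to 41 CPM). So did Slc5a7, Slc18a3 and Nos1 in each of these punches. Npy lay below that range, at 40.8, 29.5 and 48.7 CPM (others 81.7 to 344 CPM). Sst lay inside it in sham 17, at 114 CPM, and below it in low 20 and high 13, at 14.1 and 20.5 CPM (others 76.7 to 281 CPM). In low 20 and high 13 the cholinergic factor Lhx8 was also low, at 0.726 and 1.44 CPM (others 2.57 to 22.6 CPM), and so was Lhx6, a factor of the peptide class, at 2.32 and 4.31 CPM (others 10.7 to 30.6 CPM). Gbx2 was high there, at 26.7 and 20.1 CPM (others 0 to 7.53 CPM). The lists as a whole were not low there. The mean over cholinergic identity genes, Lhx8 and Gbx2 among them, was 2.78 and 2.79, against 2.05 to 3.99 over all 30 libraries. The mean over identity genes of the peptide class, Lhx6 among them, was 2.72 and 2.62, with 2.27 in high 28 and 3.47 in high 44. Sham 17 held 11800 CPM of Ttr, the choroid plexus transcript transthyretin, against 1.42 to 981 CPM in the other 27 libraries.

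Among the 33 relations were also those with the mean over projection neuron genes and with the mean over genes of septum, pallidum and thalamus. Over 30 libraries the projection neuron mean gave r = 0.776 with Npy and 0.632 with Sst (adjusted permutation p = 0.000907 and 0.0161), but rho was 0.288 and 0.0968 (adjusted permutation p = 0.295 and 0.669). The septum, pallidum and thalamus mean gave r = -0.625 with each (adjusted permutation p = 0.00482 for Npy and 0.00913 for Sst), with rho of -0.249 and -0.23 (adjusted permutation p = 0.374 and 0.402). The projection neuron means fall into separate clusters, and in the 22 libraries that did not stand apart these 4 values turned sign, to -0.272, -0.269, 0.421 and 0.191. Without the 2 farthest libraries they were 0.526, 0.656, -0.325 and -0.111, none called. In those 22 libraries Nos1 gave 0.581 with the projection neuron mean and -0.791 with the other mean, as a description. Sham 48, with 5.36 CPM of Nos1, was far from the rest on the second mean, at 5.00 against 1.78 to 3.65 in the other 21. Over all 30 libraries these Nos1 values were 0.24 and -0.287, not called (adjusted permutation p = 0.321 and 0.217), and within runs they went both ways, from -0.357 to 0.912 and from -0.803 to 0.442. The mean over cortical excitatory genes gave -0.465 with Chat, -0.462 with Slc5a7 and -0.535 with Slc18a3 over 30 libraries (rho -0.369, -0.288 and -0.544, adjusted permutation p = 0.029, 0.029 and 0.00982 for r and 0.22, 0.295 and 0.0133 for rho). Without the 2 farthest libraries, sham 17 and high 44, the values were -0.32, -0.365 and -0.413 and none was called. Without the 8 libraries standing apart they were -0.339, -0.428 and -0.392. High 44, with the highest cortical mean of 6.43, held the lowest level of each cholinergic transcript in the striatum.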

How the data were processed

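The deposited values are raw counts of reads for each gene, whole numbers in a table for each region. NCBI Gene IDs were matched to symbols. The tools FastQC and HISAT2 and the genome build rn6 are named, per the submitters' processing notes. How reads were counted, with which strand setting and annotation, is not given in the sources used here. The labels' protocols name both poly(A) selection and removal of ribosomal RNA and do not say which a library had.

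Counts were fitted per region with edgeR 4.0.16 in R 4.3.3 (trimmed mean of M values, filterByExpr, robust quasi-likelihood, two-sided tests, Benjamini-Hochberg threshold of 0.05 over all genes tested). The regions were compared in 1 fit of 61 libraries. Log2 CPM used a prior count of 2. Alternatives used DESeq2 1.42.0, limma 3.58.1, other filters and size factors, blocks, and each library left out. The scripts were tested on simulated data. Libraries standing apart are those whose ribosomal protein mean, or mean over the neurons of the region (projection neurons or granule cells), lay over 1 log2 unit above or below that of the median library. This alternative and the ribosomal covariate were chosen after seeing the data.

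Titles give both libraries of an animal the same number, which pairs 29 animals. Deviations from the group means of same-numbered libraries correlated over 11658 genes with a median r of 0.39 (range -0.28 to 0.85), above 0.1 in 21 animals. No values for libraries of different numbers are given beside these, so they do not test the pairing. Nothing in the labels places rats in cohorts, and p values within a region measure the spread between these animals. The fit over both regions took the libraries of an animal as separate, except with the animal as a block. The members and the gene lists were chosen with earlier results of these data known. The rule named 6 members in every comparison, and from each list the 2 highest and 2 lowest called genes between regions, the gene of smallest p per exposure comparison, of which a few are printed, and the 5 genes most like each member. A gene that this rule names is not reported here. Single-library values of Drd1, Gabra6, Lhx8, Lhx6, Gbx2 and Ttr were chosen after their values were seen. Promoter windows are from RefSeq (GRCr8), and no coordinates of the rn6 build were used.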

Additional observations from a re-analysis of the deposited data

Results flagged for a closer look

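Of 43 groups of 4 to 10 libraries tested for a sample far from the others, 12 held one, where chance gives about 1 in 20. In the library labelled cerebellum low 22, Chat was 20.1 CPM, Slc5a7 23.3 CPM and Slc18a3 32.5 CPM, against at most 0.103, 0.619 and 0.271 CPM in the other 7 low libraries. Chat was 1.25 CPM in cerebellum medium 40, against 0 to 0.139 CPM in the others of its group. Nos1 was 2.73 CPM in cerebellum sham 48, against 73.9 to 237 CPM. In the striatum, Chat was 35.8 CPM in sham 18, against 12.8 to 20.6 CPM, and Sst was 210 CPM in sham 49, against 99.2 to 141 CPM. Low values were Npy at 40.8 CPM in sham 17, against 133 to 261 CPM, and Slc5a7 at 11.4 CPM in high 44, against 23.2 to 43.1 CPM. Sst was 14.1 CPM in low 20, against 76.7 to 124 CPM, and 20.5 CPM in high 13, against 90.5 to 217 CPM. Nos1 was 9.58 CPM in low 20, against 24 to 31.4 CPM.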

How the results depend on the processing

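In each exposure comparison within a region, 0 members were called under each alternative run, with adjusted p from 0.398 to 1 with all libraries of the comparison or the stated subsets, and from 0.207 to 1 with single libraries left out. These ranges hold no DESeq2 value for Sst, Npy and Nos1 in high cerebellum, where DESeq2 gave no adjusted p and could not call them. For the uncalled values the sign turned in some settings, and the cause was not tested. With limma-voom the log2 fold change was -0.10 for Chat and -0.18 for Npy in high striatum, -0.0057 for Nos1 and -0.16 for Slc5a7 in low, -0.25 for Sst in medium, 0.16 for Nos1 in high cerebellum and -0.45 for Sst in low cerebellum. Without the libraries standing apart it was 0.15 for Sst in high striatum, -0.018 for Slc18a3 and -0.10 for Slc5a7 in low and -0.18 for Sst in medium. In the cerebellum it was 0.32 (Nos1), -0.85 (Npy) and -0.18 (Sst) for high, -0.071 (Npy) and -0.82 (Sst) for low, and 0.27 (Nos1), -1.13 (Npy) and -0.38 (Sst) for medium. With the ribosomal covariate it was -0.040 (Chat), -0.11 (Npy) and -0.012 (Slc18a3) in high striatum, 0.00080 (Chat) in low, -0.15 (Sst) in medium, and 0.035 (Nos1) and -0.83 (Npy) in high cerebellum. With the run block Slc18a3 gave -0.00096 in low and 0.060 in medium striatum.

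Leaving out 1 library at a time gave, in high striatum, -0.15 to 0.32 (Chat), -0.040 to 0.25 (Slc5a7), -0.048 to 0.45 (Slc18a3), -0.19 to 0.13 (Sst), -0.13 to 0.26 (Npy) and -0.042 to 0.29 (Nos1). In low striatum it gave -0.32 to 0.21 (Chat), -0.12 to 0.27 (Slc5a7), -0.29 to 0.19 (Slc18a3) and -0.0043 to 0.30 (Nos1), and in medium -0.31 to 0.041 (Chat), -0.12 to 0.12 (Slc18a3) and -0.14 to 0.24 (Sst). In the cerebellum it gave -0.37 to 0.10 (Nos1, high), -0.46 to 0.0013 (Nos1, low), -0.033 to 2.32 (Npy, low) and -0.20 to 1.59 (Npy, medium). The interaction for low ran from -6.08 to 0.63 (Chat), from -3.98 to 0.33 (Slc5a7) and from -7.94 to 0.041 (Slc18a3), with the highest values without cerebellum low 22. Without libraries standing apart Chat gave 1.78 and Slc5a7 1.12.

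Over all genes, any exposure in striatum called 3 genes, 11 without the filter and 0 with the run block. The interaction for high called 1 gene, 6 without the filter, 0 without the libraries standing apart, 0 with the animal as replicate block and 0 to 7 with single libraries left out. The interaction for medium called 0 genes, or 0 to 2. Between regions 5431 genes were called and 8434 without libraries standing apart. The block pairs both regions of an animal. Of the members it changed the call of Nos1 and no other. The number of relations called was 12, 5 without the 2 farthest libraries. Without the libraries standing apart Slc5a7 gave r = 0.176 with Npy and 0.29 with Sst, where it had been -0.14 and -0.18. The projection neuron mean then gave -0.272 with Npy and -0.269 with Sst, and the septum, pallidum and thalamus mean 0.421 and 0.191, each with the other sign over all 30. At these depths cholinergic transcripts in the cerebellum rest on 0 to 10 reads a library outside low 22.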
